A study of Mus musculus with 14 samples.

Results

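The genes described here encode the proteins of the cytosolic ribosome. They were chosen by name: every row of the expression table named Rpl or Rps with a number and at most one of the letters a, x or l, the stalk genes Rplp0 to Rplp2, and Rpsa. Names that mark a pseudogene were left out. The rule gave 79 of 15894 listed genes, 32 for the small (40S) subunit and 47 for the large (60S) subunit, spread over 19 chromosomes. Of these, 78 are annotated as protein-coding in GENCODE, and Rps4l as a transcribed processed pseudogene. All 79 passed the filter on low values in every comparison. Their levels were measured by poly(A) RNA-seq in the epicardial and subepicardial layer dissected from mouse hearts at E16.5, each library holding the pooled RNA of 2 hearts. The 13 libraries of settled region were 3 female ventral and 3 female dorsal (replicates 1 to 3), 4 male ventral (replicates 4 to 7) and 3 male dorsal (replicates 4 to 6). A 14th library, male replicate 7, is named dorsal in its title and ventral in its tissue field, so its values are given apart. The labels give the genotype Tbx18Cre for every library and the study calls the hearts wild type. No library was treated.

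Ribosomal proteins assemble with ribosomal RNA into the 2 subunits, the small one reading the messenger RNA and the large one joining the amino acids. Their messenger RNAs are among the most abundant of any cell, and most begin with a C followed by a run of C and T, the terminal oligopyrimidine (TOP) tract. Through this tract mTORC1 and the RNA-binding protein Larp1 set how actively these messengers are translated, which RNA-seq does not measure. A cell makes the proteins in nearly equal numbers, so their genes are often described as one set, although several members also act outside the ribosome.

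RefSeq start sites on GRCm38.p6 were found for 58 of the 79 genes. A run of 8 or more consecutive C or T, within 20 bases on either side of an annotated start, was present in 29 of the 58 (50%) and in 18.4% of 27025 genes. The letters CCGGAAG, searched on both strands over the 300 bases from 250 before to 50 after the start, were present in 24 of the 58 (41.4%) and in 9.93% of all genes. Both shares describe the letters alone. The stretches around the start of 9 genes whose values are given below are shown to set runs of C or T beside the measurements. Each holds 30 bases, with 10 before the start, and capitals mark the longest run of C or T. This run need not begin at the start, and in Rpl5 it lies before it, so the capitals do not mark the TOP tract as such.
Rps12 (chr10:23787190-23787219, minus strand): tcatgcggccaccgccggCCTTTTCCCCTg
Rpsa (chr9:120127756-120127785, plus strand): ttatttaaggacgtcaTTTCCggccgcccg
Rpl35 (chr2:39005112-39005141, minus strand): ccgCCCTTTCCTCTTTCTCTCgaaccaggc
Rps24 (chr14:24490668-24490697, plus strand): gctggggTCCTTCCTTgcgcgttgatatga
Rps27 (chr3:90213629-90213658, minus strand): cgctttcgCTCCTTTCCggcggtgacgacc
Rplp0 (chr5:115559457-115559486, plus strand): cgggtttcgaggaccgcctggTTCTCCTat
Rpl5 (chr5:107900518-107900547, plus strand): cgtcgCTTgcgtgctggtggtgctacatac
Rps2 (chr17:24720053-24720082, plus strand): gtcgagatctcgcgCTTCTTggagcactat
Rps28 (chr17:33824543-33824572, minus strand): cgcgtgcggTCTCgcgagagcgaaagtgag
The longest run spans 18 bases in Rpl35, 11 in Rps12, 9 in Rps24 and Rps27, 7 in Rplp0, 6 in Rps2, 5 in Rpsa, 4 in Rps28 and 3 in Rpl5. Rps24 has 2 annotated starts, and at the one not shown the longest run spans 7. These 9 were chosen with their changes known, so the order is no comparison. Over the 58 genes, 19 of the 29 with a run of 8 or more were called higher ventrally in female hearts (median log2 change 0.56), and 17 of the 29 without one (median 0.57).

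Each library held 13918995 to 25221314 reads on the listed genes, and a value is a normalized CPM (counts per 1e6), that is reads over a library size scaled by the authors. The 79 genes had a mean of 1.86 to 1594 normalized CPM over the 14 libraries (median 351), and 74 of them reached 100. The tissue is a mixture. All 10 epicardial markers examined were present, and their summed level was 1755 to 2834 normalized CPM in female ventral, 252 to 619 in female dorsal, 1991 to 6103 in male ventral and 1635 to 4226 in male dorsal libraries. Female dorsal replicate 1 stood apart in atrial cardiomyocyte markers, with 12540 normalized CPM against 536 to 2013 in the other female dorsal libraries, and male ventral replicate 7 in erythroid markers, with 53306 against 7570 to 12713 in the other male ventral libraries. In such bulk samples, fewer cells of a type and less RNA per cell cannot be told apart.

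Summed over the 79 genes, ribosomal protein messengers took up more of the female ventral libraries than of the female dorsal ones. Their share of the summed normalized CPM came to 3.66%, 4.09% and 4.09% in the ventral libraries of females and to 2.48%, 2.57% and 3.41% in the dorsal ones. Every female ventral library was above every female dorsal one, with means of 3.95% ± 0.249 and 2.82% ± 0.514 (SD, n = 3 each). Male libraries held 3.74%, 3.42%, 3.47% and 4.18% on the ventral side against 2.95%, 3.46% and 3.57% on the dorsal side, each in the order of the replicate numbers. These groups overlapped, with means of 3.70% ± 0.347 (SD, n = 4) and 3.33% ± 0.330 (SD, n = 3). The male library of unsettled region held 3.35%. The small-subunit genes summed to 0.675, 0.686 and 0.690 of the large-subunit genes in the female ventral libraries and to 0.631 to 0.646 in the female dorsal ones. In males this ratio was 0.646 to 0.658 ventrally and 0.602 to 0.646 dorsally. Transcripts of the mitochondrial genome moved in the same direction in females, with 6.19% to 8.28% of the signal ventrally against 3.83% to 4.76% dorsally, and their part in the result was not tested.

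**Figure D1:**
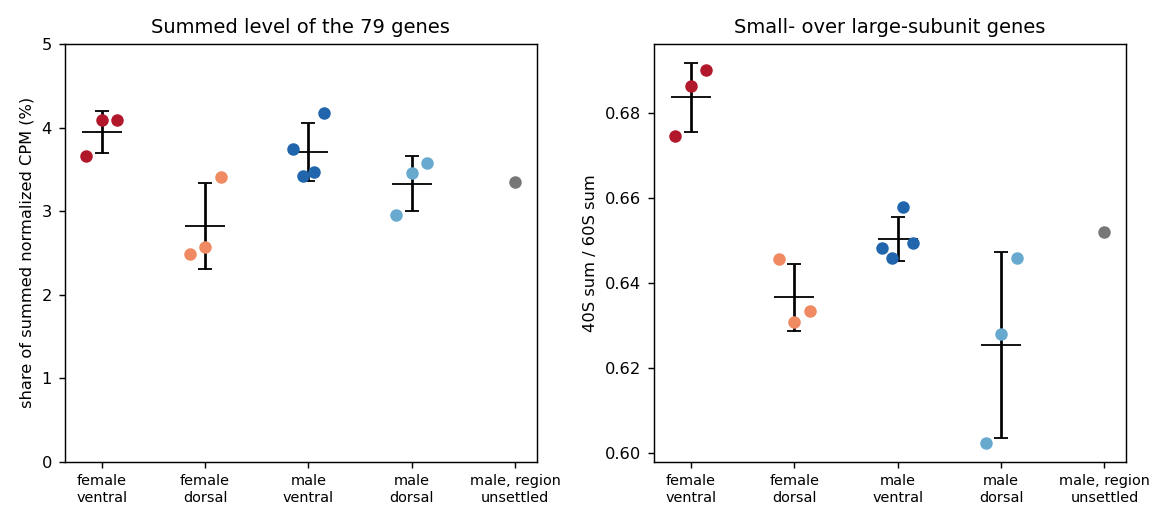
Left, the 79 ribosomal protein genes as a percentage of the summed normalized CPM of each library, and right, the sum of the 40S genes divided by the sum of the 60S genes (axis not from 0). Points are libraries, bars the mean and SD of a group; the 3 female ventral libraries lie above the 3 female dorsal ones in both panels (3.66% and more against 3.41% and less on the left).

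The first comparison asks which genes differ between the ventral and the dorsal side of female hearts. Of the 79 genes, 46 (58.2%) were called higher ventrally by limma on log2(value + 1), at a Benjamini-Hochberg adjusted p under 0.05 over 14411 genes, and none higher dorsally, although Rps2 was called higher dorsally after correction for GC content and length. Of all genes tested 27.8% were called, 14.5% with the ventral side higher and 13.3% with the dorsal side higher. At an unadjusted p under 0.05 stood 65 members, and 40.5% of all genes. The median log2 change of the 79 genes was 0.56, with a range from -0.34 to 1.12, against 0.01 over all genes, and 76 changes were above 0, as were 50.7% of all genes. Every ventral library exceeded every dorsal one for 62 of the 79, and every dorsal library exceeded every ventral one for 1 (Rps2). Such separation was seen in 23.2% and 21.6% of all genes. By subunit, 23 of 32 small-subunit genes (median 0.57) and 23 of 47 large-subunit genes (median 0.54) were called. The count fell to 11 without female ventral replicate 2, to 13 without female ventral replicate 3, to 20 without female dorsal replicate 2 and to 22 without female dorsal replicate 1. The shares of all genes called in these fits are not given here, so a fall particular to the members cannot be read from the counts. The 11 genes Rpl17, Rpl35, Rpl35a, Rpl37a, Rps12, Rps20, Rps21, Rps24, Rps26, Rps27 and Rpsa were called under each of the 16 alternatives run for female hearts.

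Markers of several cell types moved with this set. In female hearts 10 of 10 epicardial, 5 of 8 fibroblast and 4 of 6 macrophage markers were called higher ventrally, with medians of 2.45, 1.26 and 1.72 on the log2 scale. The lymphatic endothelial list, whose 6 names belong to 7 identifiers, had 5 called higher ventrally. Summed fibroblast markers measured 11545 to 22103 normalized CPM ventrally and 2904 to 4547 dorsally, macrophage markers 130 to 267 and 46.0 to 81.1, and lymphatic markers 400 to 2052 and 148 to 295. Smooth muscle markers measured 745 to 1151 ventrally and 1269 to 1575 dorsally, with 1 of 6 called higher ventrally and 3 higher dorsally (median -0.74). Ventricular cardiomyocyte markers overlapped, at 23992 to 34951 ventrally and 34276 to 49395 dorsally, and 1 of 10 was called higher ventrally. That marker was the only one of the 10 with a change above 0, and the median was -0.35. Of the cycling-cell markers 1 of 8 was called higher ventrally and 4 higher dorsally. For immediate early genes, the 6 listed gave 1 higher ventrally and 2 higher dorsally, with sums of 115 to 164 ventrally and 201 to 225 dorsally. The summed levels overlapped in blood endothelial markers (0 of 6 called), atrial markers (1 of 6 called higher dorsally), erythroid markers (1 of 5 called higher dorsally) and Schwann cell or neuronal markers (0 of 2 tested called). No marker listed was at 3 reads or fewer in all libraries. The part of these cell types in the change of the ribosomal protein genes was not tested.

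**Figure D2:**
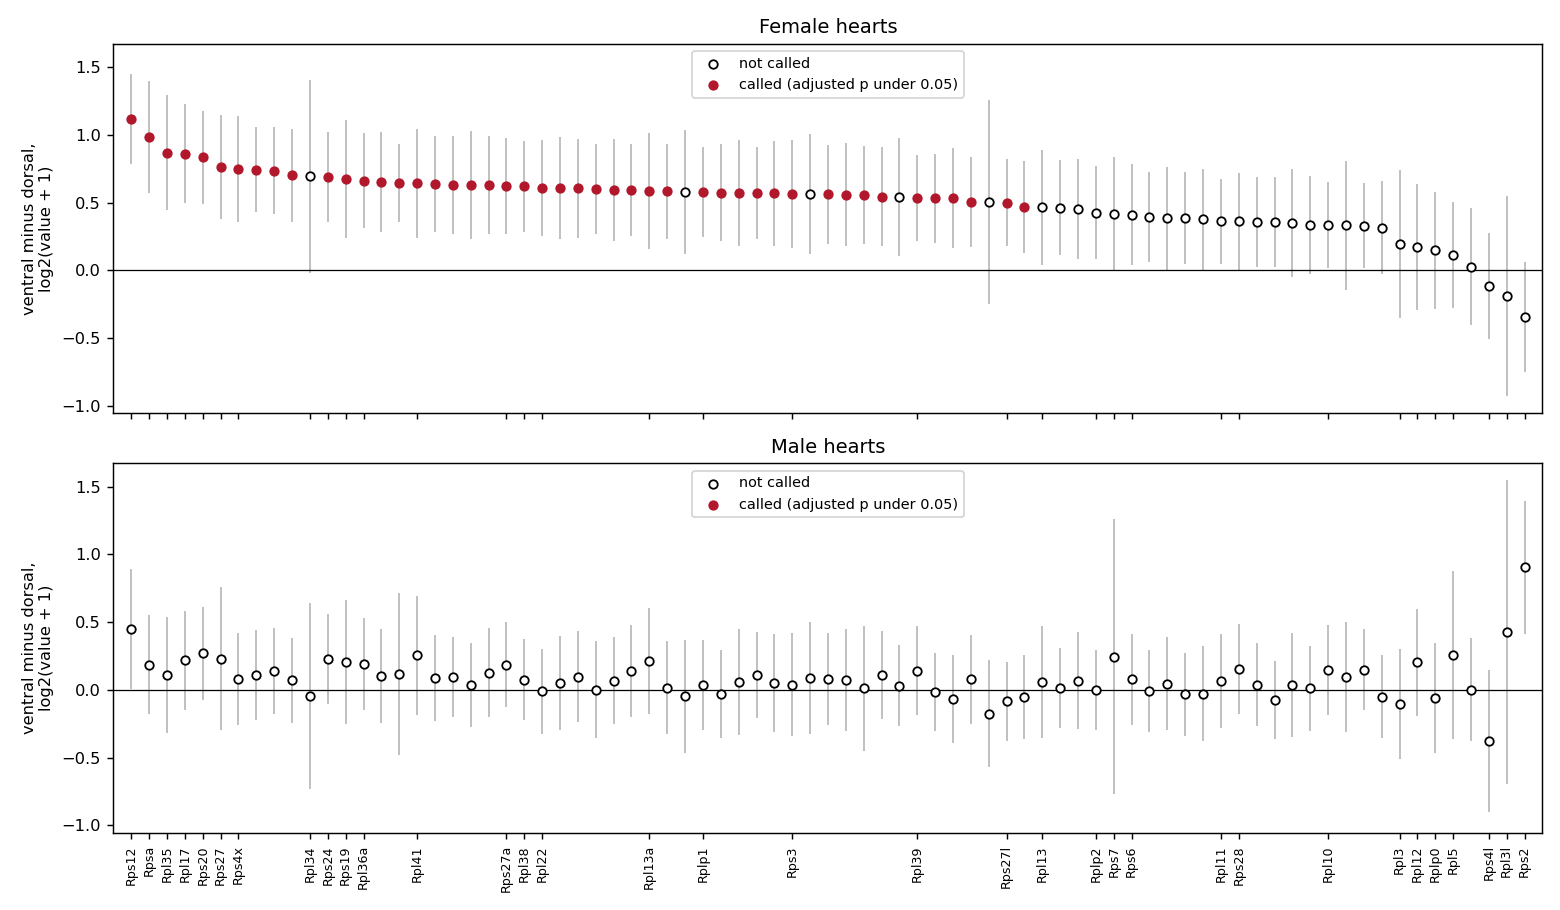
Log2 change, ventral minus dorsal, of each of the 79 genes in female (upper) and male (lower) hearts, in the order of the female change, with names under the genes described in the text; bars are 95% confidence intervals and filled points genes called at an adjusted p under 0.05. In females 76 changes lie above 0 and 46 are called; in males the points lie close to 0, with a median of 0.08 and none called.

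Rps12 (chromosome 10 of GRCm38, 23785183 to 23787275, minus strand), a small-subunit protein of the beak, had the largest change. On the ventral side of females its level was 85.0, 91.4 and 94.9 normalized CPM, and on the dorsal side 35.8, 41.5 and 46.9. All ventral libraries stood well clear of the dorsal ones. The change on the log2 scale was 1.12 (limma, standard error 0.149, adjusted p = 0.00118). Rps12 shares 85.0% of its 60-base windows with other genes.

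Rpsa (chromosome 9, 120127689 to 120132369, plus strand) encodes the small-subunit protein known also as the laminin receptor, whose loss in people causes isolated congenital asplenia. The female ventral libraries held 467, 548 and 543 normalized CPM and the dorsal ones 217, 240.5 and 344. All ventral values were higher, by 0.98 on the log2 scale (limma, standard error 0.185, adjusted p = 0.00487).

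Rpl35 (chromosome 2, 39001580 to 39005624, minus strand), which sits by the exit of the peptide tunnel, measured 903, 1054 and 1204 normalized CPM ventrally and 473, 581 and 683 dorsally. It was higher ventrally by 0.87 on the log2 scale (limma, standard error 0.189, adjusted p = 0.00920). Its near-identical copy Gm2000 held a mean of 619 over the 14 libraries against 737 for Rpl35. The copy alone was not called (0.49 in limma, adjusted p = 0.0661). With the copy added, the change of Rpl35 was smaller and still called (0.71 in limma, adjusted p = 0.0282). Rpl17 (chromosome 18, 74998558 to 75003381, plus strand), another protein of the tunnel exit, measured 303, 326 and 386 ventrally and 153, 192 and 215 dorsally, a difference of 0.86 on the log2 scale (limma, standard error 0.164, adjusted p = 0.00515). Neither gene showed overlap between the regions.

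Rps20 (chromosome 4, 3831334 to 3835665, minus strand) and Rps24 (chromosome 14, 24487125 to 24496959, plus strand) are small-subunit genes, Rps24 being one of those mutated in Diamond-Blackfan anaemia. Rps20 measured 211, 243 and 258 normalized CPM ventrally and 118, 124 and 159 dorsally (log2 change 0.83 in limma, standard error 0.155, adjusted p = 0.00462). Rps24 measured 447, 479 and 522 ventrally and 259.5, 309 and 332 dorsally (log2 change 0.69 in limma, standard error 0.148, adjusted p = 0.00855). Windows shared with other genes made up 6.94% for Rps20 and 16.1% for Rps24, over representative transcripts of 3706 and 1613 bases. The median length of such transcripts in the set was 761 bases. A low share over a long transcript does not mark a gene as free of shared reads.

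**Figure D3:**
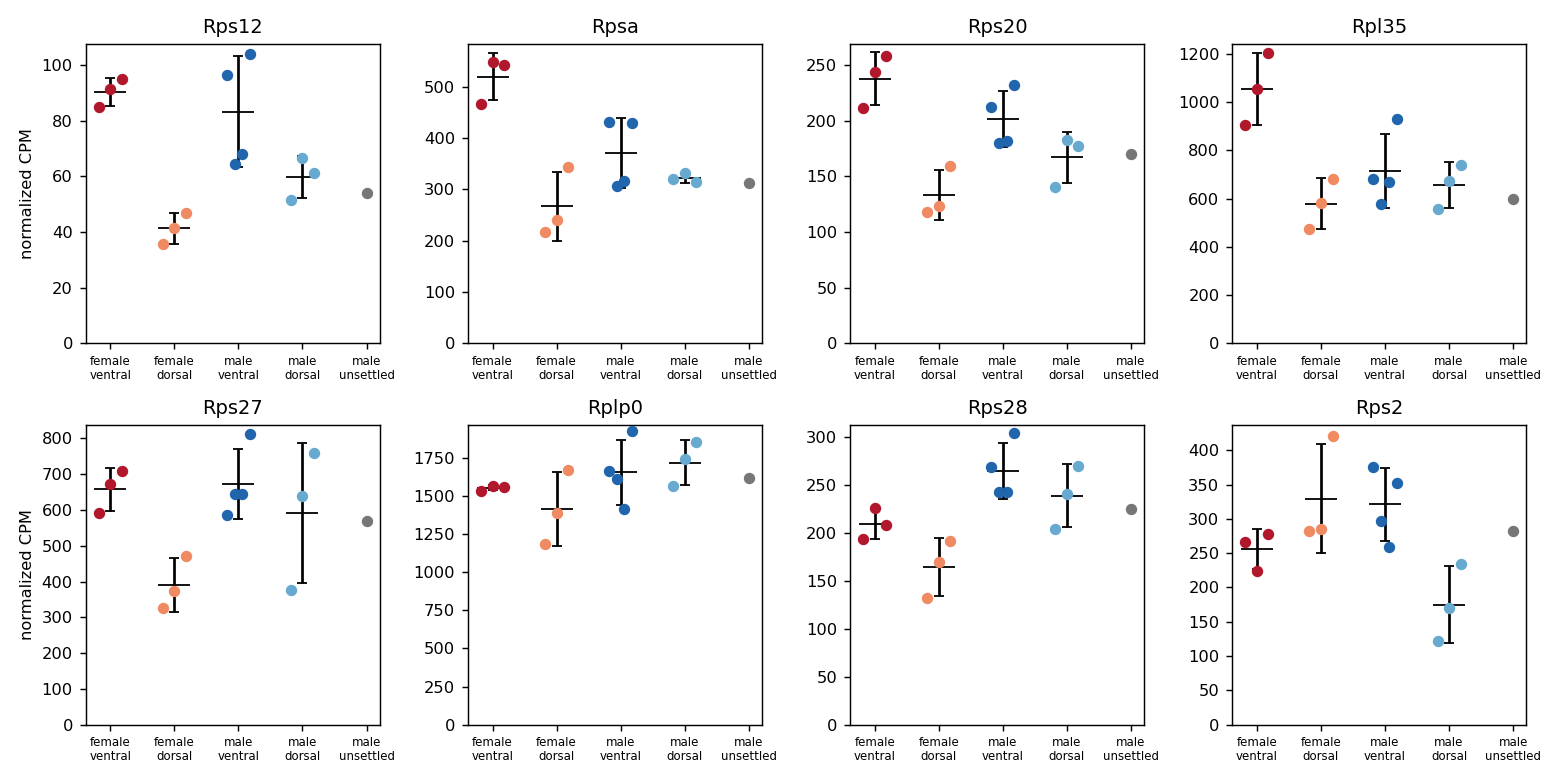
Normalized CPM of 8 ribosomal protein genes in each library, with the mean and SD of each group; the single grey point is the male library of unsettled region. Rps12, Rpsa, Rps20, Rpl35 and Rps27 separate the female regions without overlap, Rplp0 does not (dorsal values up to 1673), Rps28 lies higher in males, and Rps2 runs in opposite directions in the sexes.

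The stalk proteins Rplp0, Rplp1 and Rplp2 recruit the elongation factors to the large subunit. Only Rplp1 was called in females, at 372, 410 and 422 normalized CPM ventrally and 235, 262 and 312 dorsally (log2 change 0.58 in limma, standard error 0.148, adjusted p = 0.0188). Of the 16 alternatives 5 lost this call, and the smallest change, 0.19, came after correction for GC content and length. Rplp2 measured 261 ± 15.5 ventrally and 195 ± 32.2 dorsally (SD, n = 3; log2 change 0.43, adjusted p = 0.0629). Rplp0, which had the highest mean of the set, held 1536, 1569 and 1558 ventrally and 1187, 1387 and 1673 dorsally, so that its groups overlapped (log2 change 0.15, 95% interval from -0.28 to 0.58, adjusted p = 0.597).

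Rpl5 and Rpl11 form, with the 5S RNA, the particle that binds Mdm2 when ribosome assembly is disturbed. Rpl11 measured 311, 324 and 325 normalized CPM ventrally and 219, 245 and 285 dorsally, without overlap (log2 change 0.36, standard error 0.140), and its adjusted p of 0.0805 did not pass. Rpl5 measured 78.2, 70.2 and 99.2 ventrally and 70.5, 67.6 and 90.3 dorsally, with overlapping groups (log2 change 0.11, adjusted p = 0.663). Without female ventral replicate 3 the change of Rpl5 was -0.026, and after correction for GC content and length it was 0.44 (adjusted p = 0.0792), which passed when the replicate block was added (adjusted p = 0.0449). Its value is uncertain for another reason, given with the near-identical copies.

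Rps27a is made as a fusion with ubiquitin. It measured 566 ± 41.9 normalized CPM ventrally and 369 ± 58.2 dorsally in females (SD, n = 3; log2 change 0.62, adjusted p = 0.0175). Rps6, the small-subunit protein that the S6 kinases phosphorylate, held 865, 936 and 978 ventrally and 615, 669 and 819 dorsally, without overlap, but did not pass (log2 change 0.41, standard error 0.167, adjusted p = 0.0946).

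Several members are known for roles beyond the common machinery. Rps19, the gene most often mutated in Diamond-Blackfan anaemia, measured 1128 ± 96.5 ventrally and 716 ± 164 dorsally (SD, n = 3; log2 change 0.68, adjusted p = 0.0290). Rpl38, whose loss disturbs the axial skeleton of the mouse, measured 336 ± 24.8 and 219 ± 31.9 (0.62, adjusted p = 0.0144). Rpl13a, which can leave the ribosome to silence inflammatory messengers, measured 824 ± 102 and 553 ± 118 (0.59, adjusted p = 0.0454). Rps3, also a DNA repair endonuclease, measured 990 ± 126 and 670 ± 101 (0.57, adjusted p = 0.0402). All 4 were called higher ventrally, and each lost its call in 4 to 7 of the 16 alternatives.

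Rpl22, which is dispensable in most cells but needed by developing lymphocytes, measured 129 ± 14.9 normalized CPM ventrally and 84.7 ± 13.9 dorsally (SD, n = 3; log2 change 0.61, adjusted p = 0.0195). Of the set, 4 members lie on the X chromosome, namely Rpl10, Rpl36a, Rpl39 and Rps4x. Their regional changes in females were 0.33 to 0.75, and 3 of the 4 were called. Rps4x measured 607, 735 and 817 ventrally and 370, 412 and 503 dorsally (log2 change 0.75, adjusted p = 0.0128). Rpl39 had 203, 238 and 227 ventrally and 137, 148 and 176 dorsally (0.54, adjusted p = 0.0213). Rpl10, on which the late steps of 60S maturation depend, was the one not called, with 443, 509 and 445 ventrally and 346, 352 and 410 dorsally (0.33, adjusted p = 0.107).

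Paralogs that can replace a standard protein are few. Rps27 measured 591, 672 and 710 normalized CPM ventrally and 325, 374 and 471 dorsally (log2 change 0.76, adjusted p = 0.0105), and its p53-responsive paralog Rps27l measured 256, 272 and 283 ventrally and 161, 207 and 209 dorsally (0.50, adjusted p = 0.0291). Both were called in the same direction. Rpl3 measured 680 ± 120 and 611 ± 220, with overlapping groups (0.20, adjusted p = 0.579). Rpl3l, the form of Rpl3 found in striated muscle, was the lowest of the set, at 0.106 to 3.79 normalized CPM (2 to 94 reads) in all 14 libraries. It measured 1.43, 2.42 and 1.61 in female ventral libraries and 2.24, 2.97 and 1.52 in the dorsal ones (log2 change -0.19, adjusted p = 0.698). The genes most like Rpl3l over the 14 libraries, which share these libraries, were Elac2, 4933415A04Rik, Gja3, Mrs2 and Podxl2, with Pearson's r from 0.742 to 0.790 on log2(value + 1), a ranking at low read numbers.

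By mean level Rplp0 and then Rpl13 were highest, and Rpl3l, Rpl12 and Rps12 lowest. Per kilobase of the representative transcript Rpl13 held 1681 normalized CPM, while Rps12 (149), Rpl12 (30.1) and Rpl3l (1.35) were low as well, against a median of 530 per kilobase. Neither of the highest was called in females. Rpl13 measured 1401 ± 66.2 ventrally and 1026 ± 194 dorsally (SD, n = 3; log2 change 0.47, adjusted p = 0.0961). Rpl12 measured 35.2 ± 1.02 and 31.8 ± 8.34 (0.17, adjusted p = 0.569), and without female dorsal replicate 1 the change was -0.043. The level of Rpl12 is uncertain, since its copy Gm10275 held a mean of 133 over the 14 libraries against 37.3. With that copy added Rpl12 was called, as given with the near-identical copies.

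The same question was asked of the male hearts. No member was called among 14917 genes, of which 0% passed in either direction, and 2 members had an unadjusted p under 0.05, where 14% of all genes had one. An edgeR count test on the recovered reads called no member either. The median log2 change of the 79 genes was 0.08, against 0.03 over all genes, and 61 changes were above 0, with 52.9% of all genes. The 95% interval of a member extended by a median of 0.34 to either side, so changes of that size were not excluded by these libraries. Only Rps2 had every ventral library above every dorsal one, a separation seen in 6.18% of all genes, and no member had the opposite one, seen in 7.82%. The members with the smallest p were Rps2 and Rps12. In males Rps12 stood at 96.3, 64.6, 68.0 and 104 normalized CPM ventrally, against 51.5, 66.6 and 61.3 dorsally. The male values overlapped at the edge (log2 change 0.45, standard error 0.200, unadjusted p = 0.0484 and adjusted p = 0.355 in limma). Epicardial markers overlapped between the male regions (0 of 10 called, median 0.66), as did fibroblast markers (0 of 8 called, median 0.54), while ventricular cardiomyocyte markers did not, with 19069 to 37140 normalized CPM ventrally and 39411 to 50187 dorsally (0 of 10 called, median -0.62).

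Over both sexes, with sex as a covariate, 10 members were called, all with the ventral side higher. Among 15772 genes 9.8% were called in that direction, 9.06% in the other and 18.9% in all. The share of 12.7% is near that background, although the median change of 0.28 stood above the 0.03 of all genes and 78 of 79 changes were above 0 (52.7% of all genes). An unadjusted p under 0.05 was reached by 40 members and by 34.5% of all genes. The 10 were Rps12, Rpsa, Rps20, Rpl17, Rps24, Rpl41, Rps21, Rpl37a, Rpl36a and Rps27a. Over the 7 ventral libraries Rps12 measured 64.6 to 104 normalized CPM (median 91.4) and over the 6 dorsal ones 35.8 to 66.6 (median 49.2), higher ventrally by 0.76 on the log2 scale (limma, standard error 0.154, adjusted p = 0.00793). Rpsa changed by 0.56 (adjusted p = 0.0274), Rps20 by 0.53 (adjusted p = 0.0150), Rpl17 by 0.52 (adjusted p = 0.0233) and Rps24 by 0.44 (adjusted p = 0.0204). A fit blocked on the replicate number called 2 members, Rps12 and Rps20. The shares of all genes called in this fit and in those that follow are not given here. The counts therefore show no dependence particular to the members. The count ran from 2 to 25 when single libraries were left out, with 2 without female ventral replicate 2, 3 without either ventral replicate 3 or dorsal replicate 2 of the females, 4 without female dorsal replicate 1, 5 without dorsal replicate 4 of the males, 25 without their dorsal replicate 6 and 20 without their ventral replicate 5.

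Whether the regional change differed between the sexes was tested as the male minus the female change. Female and male libraries carry separate numbers in the labels, so sex cannot be told apart from the series of libraries in this test. The median of the 79 differences was -0.48, against -0.02 over all genes, and 4 were above 0, as were 48.7% of all genes. An unadjusted p under 0.05 was reached by 42 members and by 15.4% of all genes. After adjustment over 15772 genes none of the smaller male changes passed, where 0.615% of all genes were called larger in females, and 1 member, Rps2, was called larger in males, where 2.12% were (2.73% in all). Blocking on the replicate number, 4 members were called, Rps2 again and 3 with a smaller change in males: Rpsa (-0.87), Rpl35 (-0.90) and Rpl17 (-0.75). The share of all genes called in the blocked fit is not given here.

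Rps2 (chromosome 17, 24718116 to 24721929, plus strand), a small-subunit protein at the entry of the messenger RNA channel, had the largest difference in regional change between the sexes among the 79 genes. In females it measured 266, 223 and 278 normalized CPM ventrally and 282, 285 and 421 dorsally, and in males 376, 297, 258 and 352 ventrally and 122, 169 and 233 dorsally. Neither sex showed overlap, the dorsal values being the higher in females and the ventral values in males. The female change was -0.34 (adjusted p = 0.185) and the male change 0.91 (unadjusted p = 0.00210, adjusted p = 0.285), neither called. Corrected for GC content and length, the female change was -0.55 and was called (adjusted p = 0.0460, or 0.0204 with the block as well). The difference was 1.25 (limma, standard error 0.309, adjusted p = 0.0440). This call was lost in 14 of the 25 alternatives, among them the edgeR count test (adjusted p = 0.0660) and every omission of a single library other than male ventral replicate 6 or male dorsal replicate 6. Rps2 shares 73.2% of its 60-base windows with other genes. With its copy Rps2-ps10 added, the difference was 1.18 (adjusted p = 0.0553).

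For the difference between the sexes themselves, region served as the covariate. The labels number female and male libraries separately, so sex and any difference between the 2 series of libraries cannot be told apart. Of the 79 genes Rps28 was called with males higher and Rpl17 with females higher, where 4.4% and 6.54% of all genes were called (10.9% in all). The median log2 difference was 0.04, and 10 members had an unadjusted p under 0.05, as had 25.6% of all genes. Rps28, a small-subunit protein near the messenger exit, measured 132 to 225 normalized CPM in the 6 female libraries and 204 to 304 in the 7 male ones. The values overlapped slightly (log2 difference 0.43, standard error 0.113, adjusted p = 0.0218 in limma). Rpl17 measured 153 to 386 in females and 149 to 236 in males, lower in males by -0.53 (limma, standard error 0.143, adjusted p = 0.0262). The female dorsal values of Rpl17, 153 to 215, lay within the male range, and the female ventral values, 303 to 386, lay above it. With ventral and dorsal libraries averaged by number, Rps28 was no longer called (adjusted p = 0.0716) and Rpl17 still was (adjusted p = 0.0329). The call of Rps28 was also lost without female ventral replicate 1 (adjusted p = 0.0507), and that of Rpl17 when any female ventral library (0.0538 to 0.0712), dorsal replicate 3 of the females (0.0540) or ventral replicate 6 of the males (0.0531) was left out, all as adjusted p.

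Much of the sequence of these genes recurs elsewhere in the transcriptome. Some of it lies in genes not counted as copies, as 57.4% of the windows of Rpl35 do in Wdr38. The members have also left many processed copies in the genome. A median of 54.3% of their 60-base windows, the length of a read, occurs in at least one other annotated gene, and 43 of the 79 share more than 50%. Rpl3l shares none, and 37 members have a near-identical copy among the listed genes. How reads were divided between a gene and its copy therefore bears on single members. Among the 14 members that share under 20% of their windows, 10 were called higher ventrally in females (median 0.56), where 14.5% of all genes were. With the values of the copies added 53 of the 79 were called, and the share of all genes in that fit is not given here. The share is taken over a representative transcript, which is long for some of the 14, with 5130 bases in Rps15a and 3706 in Rps20. A low share thus does not mark a gene as free of shared reads, and this subset cannot settle their part.

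Rps7, Rpl3l and Rpl34 varied most within groups, with pooled SDs of 0.63, 0.61 and 0.55 on the log2 scale. In males Rps7 measured 256 and 199 normalized CPM in the ventral and dorsal libraries of replicate 4, 371 and 396 in replicate 5, 609 and 746 in replicate 6, and 777 in ventral replicate 7. Its copy Gm6472 held 386 and 336 in replicate 4, 228 and 221 in replicate 5, 0.020 and 0.024 in replicate 6, and 3.85 in ventral replicate 7. The values of replicate 6 are the lowest of their libraries and stand for no reads. The sum of Rps7 and Gm6472 ran from 535 to 781 in these male libraries, so the low Rps7 values came with high values of the copy. The 6 female libraries held 429 to 754 of Rps7 and 22.8 to 31.3 of the copy.

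Rpl34 showed the same exchange with Rpl34-ps1 in other libraries. The copy was nearly without reads in replicate 5, at 0.180 normalized CPM ventrally and 1.29 dorsally, where Rpl34 was highest, at 323 and 353. In the other 12 libraries the copy held 74.6 to 279 and Rpl34 86.2 to 302. Ventral and dorsal libraries of one number resembled each other in this split for both pairs. What a number marks beside a pair of libraries is not stated, and a cause was not tested. With the copy added, Rpl34 was called higher ventrally in females (log2 change 0.65, adjusted p = 0.0127). Rpl34 alone was not called without the replicate block (0.70, standard error 0.320, adjusted p = 0.132) and was called with it (0.70, standard error 0.146, adjusted p = 0.00563). Rps7 was called neither alone (0.42, adjusted p = 0.119) nor with its copies (0.40, adjusted p = 0.129).

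For Rpl5 most reads were listed under the copy Gm15500, which held 838, 918 and 1087 normalized CPM in female ventral and 433, 463 and 589 in female dorsal libraries, against under 100 of Rpl5 in each of them. Rpl5 shares 93.3% of its windows with other genes, among them 48.3% with Gm15500 and 45.0% with Dipk1a, which is not counted as a copy. Their sum, 1030 ± 140 ventrally and 571 ± 94.4 dorsally (SD, n = 3), was called higher ventrally (log2 change 0.85, adjusted p = 0.00771). Rpl12 likewise held 31.8 to 42.5 on average over the 4 groups against 108 to 189 in Gm10275, and with the copy it was called (0.69, adjusted p = 0.0247). Rpl10 (0.77, adjusted p = 0.00931) and Rpl11 (0.53, adjusted p = 0.0250) were called with their copies as well. Rps27 and its retrogene Rps27rt, which share 98.6% of the windows of Rps27, were both called higher ventrally in females (Rps27rt by 0.85, adjusted p = 0.00578). Their sum measured 926, 1091 and 1076 ventrally and 495, 583 and 717 dorsally.

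**Figure D4:**
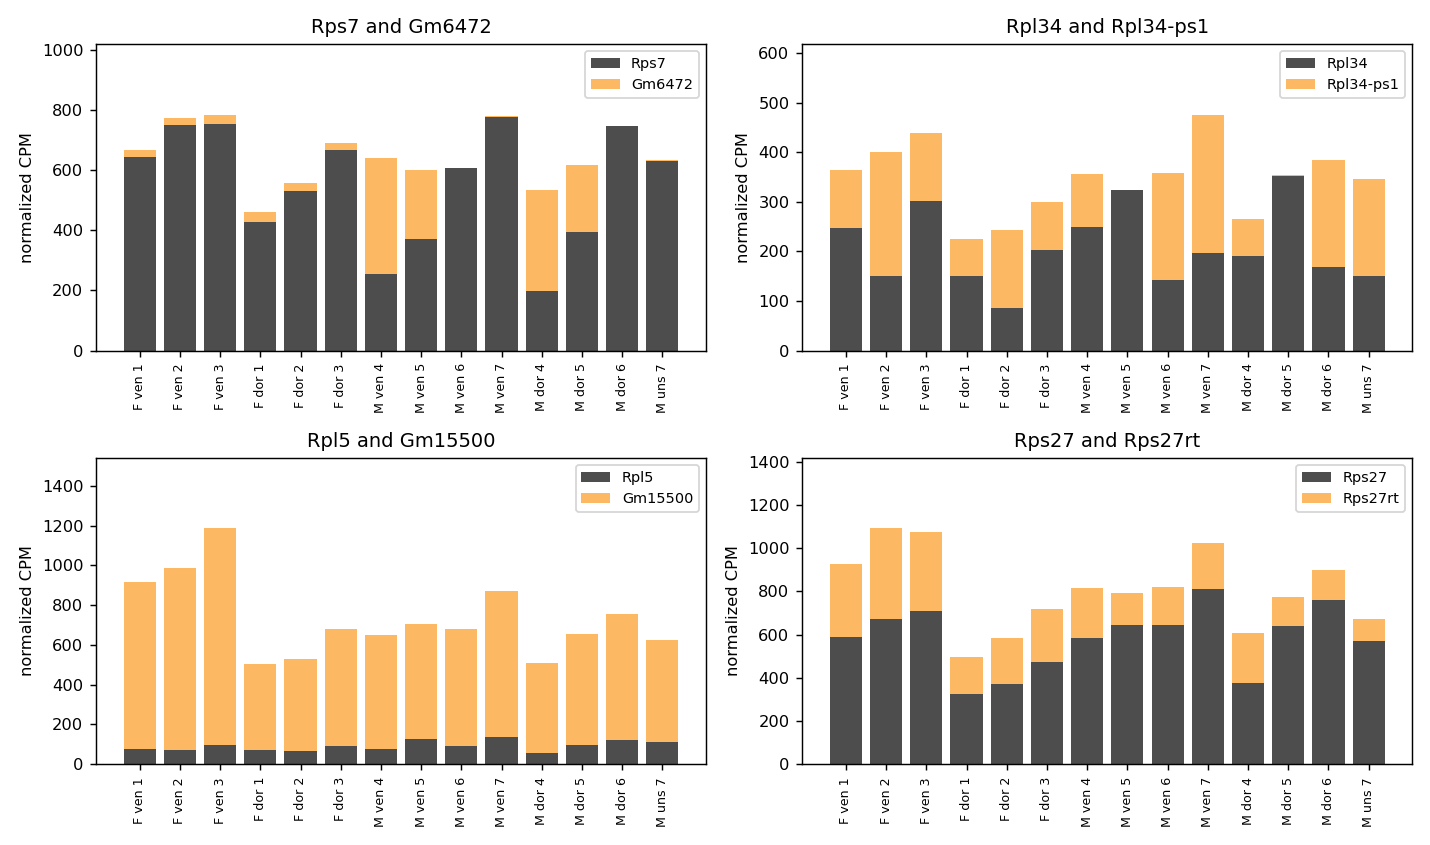
Normalized CPM of 4 ribosomal protein genes (dark) and of a near-identical listed copy (orange, stacked on top) in each of the 14 libraries, with F and M for female and male, ven and dor for ventral and dorsal, uns for the unsettled region, and the replicate number. The split of Rps7 and Rpl34 with their copies changes between replicate numbers while the stacked height changes less, and Gm15500 carries most of the height in the Rpl5 panel.

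Genes that belong to or act with the ribosome outside the name rule were counted in the same way. The counts in females stand beside 14.5% of all genes called higher ventrally and 13.3% called higher dorsally. Of the 7 ribosomal proteins that the name rule leaves out, Rack1 (log2 change 0.76, adjusted p = 0.00837), Rpl22l1 (0.87, adjusted p = 0.00483) and Fau (0.47, adjusted p = 0.0433) were called higher ventrally in females and Rpl7l1 higher dorsally (-0.43, adjusted p = 0.0323). The median of the 7 was 0.47. The 80 genes of the mitochondrial ribosome, a separate machine, had none called higher ventrally and 7 higher dorsally, with a median of -0.14. The largest dorsal changes among these were those of Mrpl3 (-0.88), Mrps2 (-0.74) and Mrpl50 (-0.67). In males their median was -0.32, with 2 of 80 changes above 0 and none called, where no gene of the whole table was called. Over both sexes 19 of the 80 were called higher dorsally, where 9.06% of all genes were.

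Among 51 ribosome assembly genes 4 were higher on the ventral side of females and 8 on the dorsal side by the same test (median -0.09). Of all genes 14.5% and 13.3% were called in these directions. Noc2l (1.21), the transcription factor of ribosomal RNA genes Ubtf (0.64) and the nucleolar chaperone Npm1 (0.59) were the largest ventral changes. Gar1 (-1.10), a protein of pseudouridylation particles, the 60S export adaptor Nmd3 (-0.98) and Utp4 (-0.80), of the early small-subunit precursor, were the largest dorsal ones. Elongation factors gave 2 and 1 of 10 (median 0.16): Eef2, which drives translocation, measured 967 ± 53.9 ventrally and 500 ± 107 dorsally (SD, n = 3; log2 change 0.97, adjusted p = 0.00460), Eef1b2 changed by 0.67, and the muscle form Eef1a2 was higher dorsally (-2.26, at 1.29 and 9.90 normalized CPM).

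Initiation factors gave 3 and 8 of 29 (median -0.10). The scaffold subunits Eif4g1 (0.88) and Eif3a (0.86) and the helicase cofactor Eif4b (0.72) were higher ventrally, and Eif3b (-1.02), Eif2s3x (-0.98) and Eif4g2 (-0.84) higher dorsally. Of 20 genes of the mTORC1, Larp1 and Myc list, 4 were called higher ventrally and 3 higher dorsally (median -0.12), shares near the 14.5% and 13.3% of all genes. Myc, a driver of ribosome production, measured 33.4 ventrally and 58.0 dorsally on average (-0.77, adjusted p = 0.0106), the mTORC1 activator Rheb changed by -0.62 and the S6 kinase Rps6kb1 by -0.60. Mnt (1.197), Tsc2 (0.67) and Eif4ebp2 (0.56) were the largest ventral changes. Of the 6 genes of the p53 and 5S particle list, Mdm2 was called, higher dorsally (-0.80, adjusted p = 0.00964). In males none of these lists had a gene called, and neither had the whole table.

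**Figure D5:**
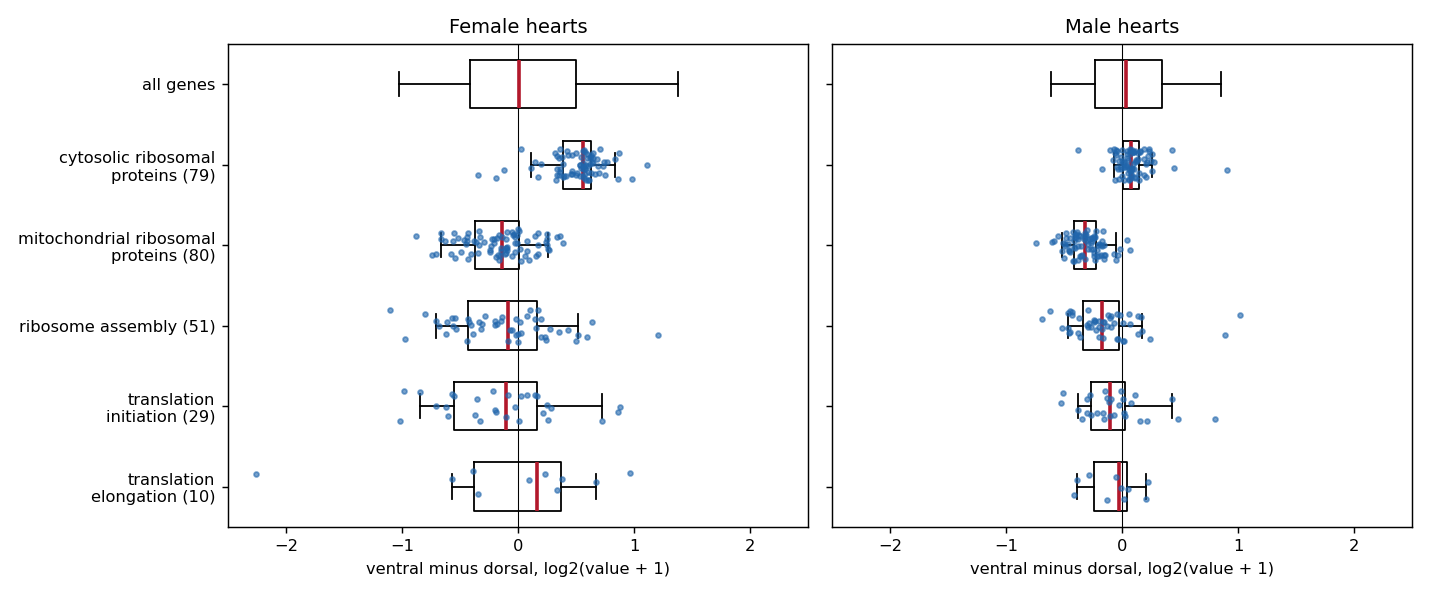
Log2 change, ventral minus dorsal, of the genes of 5 lists and of all genes tested in female (left) and male (right) hearts; blue points are genes, the red line is the median, boxes span the quartiles and whiskers reach the outermost genes within the 5th and 95th percentile. The 79 cytosolic ribosomal protein genes lie to the right in females (median 0.56), and the 80 mitochondrial ones to the left in both sexes (medians -0.14 and -0.32).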

How the data were processed

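RNA-seq was made from 14 pools of epicardium and subepicardium. According to the study's methods the authors trimmed reads with Cutadapt, discarded those under 30 bases, quantified genes on the transcriptome of GRCm38 with RSEM (1.3.1 in the submitters' processing notes; the methods give another version) and normalized with limma. The deposited signal is a normalized CPM. Whole reads were recovered for 100% of values (tolerance 0.02 reads). Strand assignment is not given in the sources used here. Positions, lengths and shared 60-base windows came from GENCODE M21, and start-site sequences from RefSeq.

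Tests used limma 3.58.1 (lmFit, eBayes with trend) in R 4.3.3 on log2(value + 1), over genes that reached 1 in no fewer than 3 of the libraries fitted, two-sided, with Benjamini-Hochberg adjustment over all genes and a threshold of 0.05. The pseudocount compresses changes of low genes such as Rpl3l. The code was tested on simulated data. The study used at least 3 litters, without saying which library came from which, so p-values measure the spread between these pools. Libraries of one replicate number deviated together over 15772 genes, with correlations of 0.187, 0.169 and 0.27 for replicates 1 to 3 and 0.427, 0.175 and 0.351 for replicates 4 to 6. The numbers were therefore taken to pair the libraries, and fits with the number as a block were alternatives.

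The members, the lists of genes and the tests were chosen with earlier results of these data known. Named members were those with a role of their own, up to 5 called members with the largest change in each direction in a comparison (the 2 with the smallest p where none was called), the 3 highest and 3 lowest by level and the 3 most variable within groups. Other lists are given by counts and medians, with up to 3 called genes in each direction. Genes of the lists outside the name rule, Rps4l, Rpl36a, Rpl41, and the members called under all alternatives or over both sexes are named as small counts. Alternatives were 0.1 as the pseudocount, dropping the filter or requiring a mean of 10, rescaling by the median of ratios or by the total of non-members, an edgeR 4.0.16 quasi-likelihood test on the recovered reads, removal of GC and length trends, the block, single libraries left out, the unsettled library as dorsal or ventral and, added after seeing the data, near-identical copies summed. Values of a few genes that these rules would name are not reported here.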

Additional observations from a re-analysis of the deposited data

Results flagged for a closer look

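Rps2 is listed here because its regional change differed between the sexes in a test of the difference itself, by 1.25 on the log2 scale (limma, adjusted p = 0.0440, and from 0.0107 to 0.127 over the alternatives). In females 3 of 3 ventral libraries were below every dorsal one, and in males 4 of 4 ventral libraries were above every dorsal one. Sex and the series of libraries cannot be told apart in this difference. No named member had a library far from the others among the 4 male ventral libraries, the only group large enough for that check.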

How the results depend on the processing

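In female hearts leaving out single libraries gave 11 to 51 members called, and every other alternative 36 to 53. In male hearts no alternative called a member. Over both sexes, where 10 were called, the count was 18 with a mean of at least 10, 30 with libraries rescaled by the total of non-members, 23 with GC and length trends removed, 16 and 6 with the unsettled library as dorsal or ventral, 2 with the replicate block, 7 with the block and the GC and length trends removed, and 2 to 25 with single libraries left out. Between the sexes, where 2 were called, 1 was when ventral and dorsal libraries were averaged by number, and 1 to 3 with single libraries left out. For the regional change of males minus females, where 1 was called, the replicate block gave 4, with or without the GC and length trends, and the edgeR test, the unsettled library as dorsal and the copies added gave 0 each, as did most fits that left out a library (0 to 1). The replicate block changed no other count by over 1.5 times. In females it also ended no call by itself among named members and added that of Rpl34. In the comparisons they were named for, single members kept their direction except, in females, Rpl5 (-0.026 to 0.24 with single libraries left out, lowest without female ventral replicate 3) and Rpl12 (-0.043 to 0.34, lowest without female dorsal replicate 1). The summed shares were the same from recovered reads. Counts under the alternatives are given without the shares of all genes called in the same fits, so they do not show a dependence particular to the members. The causes were not tested.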
